A study of Mus musculus with 4 samples.

Results

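The tripartite motif (TRIM) genes of mouse embryonic stem cells, together with Mid1, were followed across 3 messenger RNA libraries. Members were chosen by symbol, as the genes named Trim with a number and an optional letter, or Mid1 or Mid2, and Trim71 was left out by the rule. In all, 45 of the 13815 genes of the mRNA table met it, and Mid2 was not analysed here. The family itself was selected on the ratios of the knockout libraries to WT, which were in view when it was proposed, so its values are a description and none of them is a test. The libraries are V6.5 wild-type cells (WT), cells without Dgcr8 (dgcr8-/-) and cells without Dicer (dicer-/-), with 1 library of each, and the labels name V6.5 as the strain of all of them. All were grown in serum with leukaemia inhibitory factor, and polyadenylated RNA was sequenced. The knockout alleles, the age of the cultures and the number of clones are not given in the labels. With 1 library per group no difference has a replicate check, and genotype, cell line and culture cannot be told apart. A difference in the number of expressing cells and one in RNA per cell cannot be told apart either.

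TRIM proteins carry, in most cases, a RING finger, 1 or more B-boxes and a coiled coil, and the RING finger passes ubiquitin from an E2 enzyme to a substrate. What follows the coiled coil sorts the family into classes: a PRY-SPRY domain in many, NHL repeats, a PHD finger with a bromodomain, or a COS box that binds microtubules. Family members are known for antiviral restriction, transcriptional repression, muscle and nerve cell architecture and, in a few cases, for binding Argonaute or its partners. DGCR8 and Dicer act in turn to make miRNAs, DGCR8 with Drosha in the nucleus and Dicer in the cytoplasm.

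The libraries held 9931625 counts for WT, 11123498 for dgcr8-/- and 12309100 for dicer-/-. Levels are given as CPM (counts scaled to a common total), where 1 CPM was 9.93 counts in WT, 11.1 in dgcr8-/- and 12.3 in dicer-/-. The targeted genes were lower in their own knockouts and not at 0, with Dgcr8 at 523 counts in WT, 232 in dgcr8-/- and 1043 in dicer-/-, and Dicer1 at 794, 1419 and 247 in the same order. All 8 pluripotent stem cell markers were listed, none at 0, with a summed level of 5750 CPM in WT, 4774 in dgcr8-/- and 3839 in dicer-/-. The markers went both ways, with Tdgf1 at 1486, 471 and 421 CPM and Nanog at 405, 577 and 417 CPM, and Pou5f1 at 2207, 1898 and 1635 CPM. Zfp42, at 488, 386 and 95.1 CPM, had the largest change of the list in dicer-/- (log2 ratio -2.35). It was also the 1 marker called between the knockouts (log2 ratio 2.01 in dgcr8-/- over dicer-/-). Feeder fibroblast markers, 3 of 8 listed, summed to 28.5, 2.61 and 2.19 CPM, with S100a4 at 0 counts in dgcr8-/-. Thy1, at 175, 23 and 16 counts, and Col1a1, at 97, 6 and 5, were called lower in both knockouts. S100a4 was called lower in dgcr8-/- only. Over all genes 8.02% and 9.7% were lower. Col1a1 and S100a4 were under 1 CPM in both knockouts. The part of these markers in the members lower than WT was not tested. Macrophage and lymphoid markers, 3 of 8 listed, summed to 10.2, 16.1 and 9.26 CPM. They went both ways in dicer-/-, with Cd68 at 9.57, 12.8 and 2.44 CPM and Cd3e at 0.403, 3.15 and 6.01 CPM. Every count of 0 below is an empty cell of the table. Intervals are exact 95% intervals of a ratio of CPM and cover counting error only. A value given as at least so many fold sets the library at 0 to 3 counts. It leaves out the counting error of the other library, so it is not a 95% bound.

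The sequences upstream of the members the results turn on are shown for Mid1, Trim12a and Trim12c. Mid1 had the largest log2 ratio of (CPM + 1) to WT of any gene in both knockouts. Trim12a and Trim12c are close copies on chromosome 7 whose ratios to WT differed in dgcr8-/-. The windows are the 250 bases before annotated starts in the RefSeq promoter table of GRCm38.p6. All are given 5′ to 3′ on the strand of the gene. For Mid1 the table holds 3 starts, and which of them the deposited entry uses was not given. They are numbered along the plus strand, with windows at chrX:169684949-169685198, chrX:169827909-169828158 and chrX:169879369-169879618. Capitals mark CG dinucleotides, of which these windows have 0, 5 and 9 in that order.
Mid1 start 1: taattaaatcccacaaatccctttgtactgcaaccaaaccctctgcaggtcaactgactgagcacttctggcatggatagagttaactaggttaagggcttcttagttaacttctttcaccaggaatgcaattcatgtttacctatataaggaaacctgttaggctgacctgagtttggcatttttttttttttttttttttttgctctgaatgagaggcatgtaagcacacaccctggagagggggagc
Mid1 start 2: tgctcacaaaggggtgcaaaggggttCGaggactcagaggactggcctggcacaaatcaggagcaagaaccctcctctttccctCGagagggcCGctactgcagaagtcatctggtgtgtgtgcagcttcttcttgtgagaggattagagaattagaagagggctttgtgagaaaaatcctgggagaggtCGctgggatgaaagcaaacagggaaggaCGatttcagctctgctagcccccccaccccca
Mid1 start 3: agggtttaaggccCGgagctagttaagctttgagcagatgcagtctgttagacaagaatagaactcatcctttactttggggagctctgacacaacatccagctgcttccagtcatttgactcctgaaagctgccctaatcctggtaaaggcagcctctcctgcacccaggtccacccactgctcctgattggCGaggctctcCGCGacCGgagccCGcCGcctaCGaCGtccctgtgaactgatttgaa

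The windows of Trim12c (chr7:104353350-104353599) and Trim12a (chr7:104315496-104315745) lie on the minus strand. Capitals in Trim12c mark a match to GAAANNGAAA, letters shared by interferon-stimulated response elements, read on the opposite strand, 20 to 29 bases before the start.
Trim12c: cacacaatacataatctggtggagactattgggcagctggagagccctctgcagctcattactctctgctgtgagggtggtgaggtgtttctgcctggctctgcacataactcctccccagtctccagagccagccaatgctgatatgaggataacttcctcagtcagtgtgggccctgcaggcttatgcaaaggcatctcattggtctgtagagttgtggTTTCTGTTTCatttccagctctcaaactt
Trim12a: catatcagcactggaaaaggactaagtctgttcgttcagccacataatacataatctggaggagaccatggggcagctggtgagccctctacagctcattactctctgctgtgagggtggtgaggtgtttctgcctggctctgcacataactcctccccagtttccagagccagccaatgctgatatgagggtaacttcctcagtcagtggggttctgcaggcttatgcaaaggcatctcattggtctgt
Aligned locally, the windows were identical at 200 of 211 positions (94.8%). Trim12a has no match before its start, and the same letters begin at base 11 after it, as the annotated starts of the copies are offset. Searched on both strands, GAAANNGAAA was found in 2.98% of 32851 promoter windows of this length and in 2 of the 48 windows of 35 members with an entry, those of Trim12c and Trim26. TATAAA was found in 12.4% of all windows and in 4 of the members' 48. The median CG count was 10.5 in the members' windows and 6 in all.

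Members were higher than WT more often than lower in both knockouts. A gene was called at 2-fold or more on the log2(CPM + 1) scale, where either library reached 1 CPM, and the scale understates the change of low genes. In dgcr8-/- against WT, 43 members entered, of which 15 were higher and 5 lower, that is 34.9% and 11.6%, where 14.3% and 8.02% of all 13223 genes were higher and lower. In dicer-/- against WT, 43 members entered as well, and 16 were higher and 4 lower, 37.2% and 9.30%, beside 16% and 9.7% of all 13403 genes. Both comparisons use the same WT library. Of the members that entered, 12 in the first and 13 in the second reached 1 CPM in only 1 of the libraries, where a large ratio is built in. Among members at 1 CPM or more in both libraries, 8 of 31 were higher and 1 lower in dgcr8-/- (13.2% and 5.69% of all such genes), and 9 of 30 higher and 1 lower in dicer-/- (13.8% and 7.31%). The median log2 ratio of the members was 0.46 in dgcr8-/- and 0.58 in dicer-/-, and that of all genes 0.11 and 0.10. Median-ratio scaling moved the median of all genes by -0.13 and -0.11 and TMM scaling by -0.11 and -0.10. Under median-ratio scaling the members' medians were 0.33 and 0.47 and their calls 14 higher and 5 lower, and 16 and 5. Over all genes 11.8% were then higher and 10.2% lower in dgcr8-/-, and 14.2% and 11.5% in dicer-/-. In that scaling genes higher made up 53.6% of the calls over all genes in dgcr8-/- instead of 64.1%. In dicer-/- they made up 55.4% instead of 62.3%.

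The levels spanned a wide range within the family. Trim28 alone had 16640 counts in WT, 15569 in dgcr8-/- and 19444 in dicer-/-, of 26836, 35805 and 39519 for the 45 members. The other members summed, without Trim28 and Mid1, to 1026 CPM in WT, 1463 in dgcr8-/- and 1548 in dicer-/-. In WT 35 members were at 1 CPM or more, in dgcr8-/- 39 and in dicer-/- 38. Transcript lengths were not used here, so levels are compared between libraries and not between genes.

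**Figure D1:**
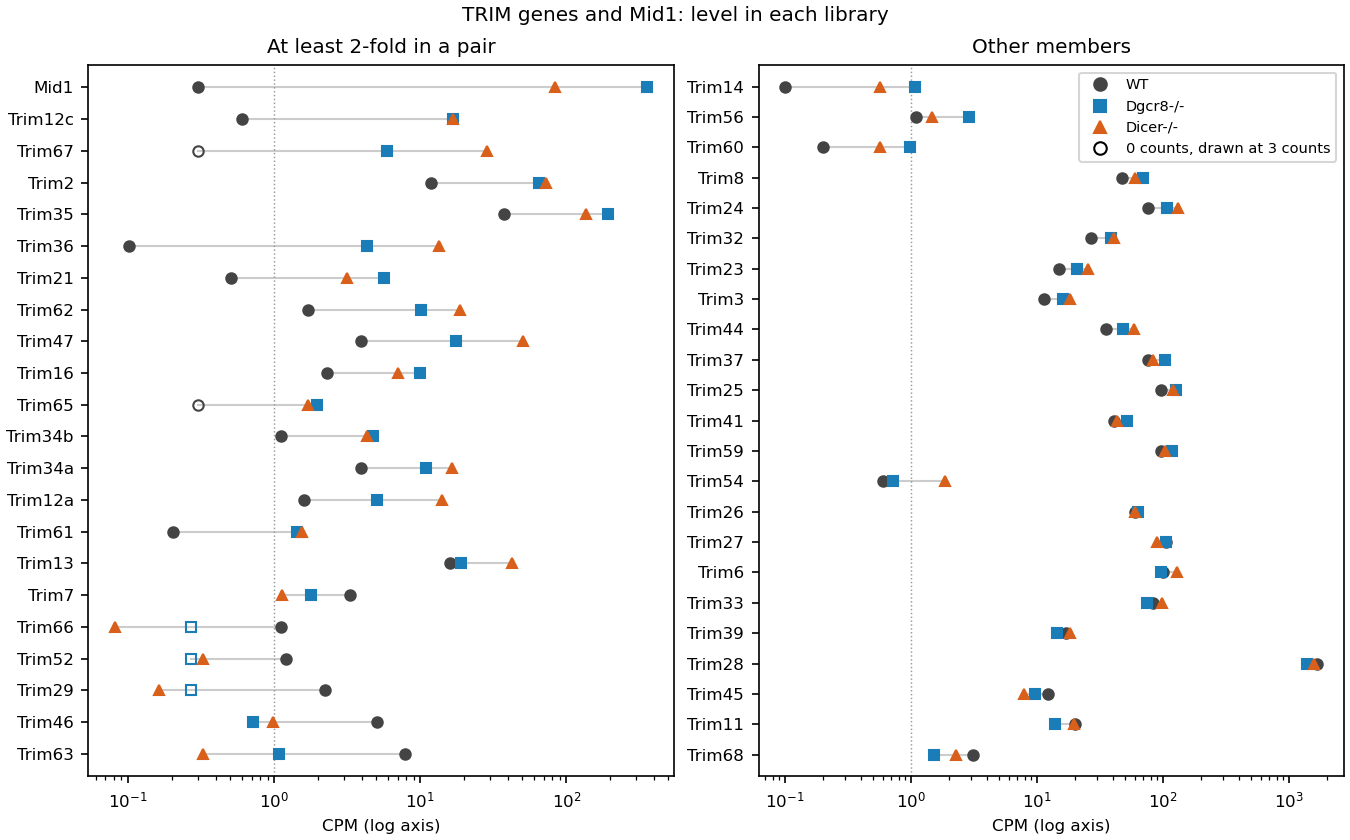
Level of each of the 45 members in CPM (log axis) in the WT, dgcr8-/- and dicer-/- libraries, 1 point per library. Members are ordered by the ratio of dgcr8-/- to WT. The left panel has the 22 members called on log2(CPM + 1) in 1 or more pairs, the right panel the 23 others. Mid1 goes from 0.302 CPM in WT to 356 in dgcr8-/- and 83.4 in dicer-/-, while Trim28 stays between 1400 and 1675 CPM; open symbols are 0 counts drawn at the level of 3 counts, and the dotted line is 1 CPM.

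The COS-box class, whose proteins bind microtubules, held the member with the largest log2 ratio of (CPM + 1) to WT and the widest spread of any class. Mid1 encodes a ligase that marks the catalytic subunit of protein phosphatase 2A for destruction through the adaptor alpha4 (Igbp1), and its human gene is mutated in X-linked Opitz syndrome. It had 3 counts in WT, 3961 in dgcr8-/- and 1026 in dicer-/-, nearly absent from WT and abundant in both knockouts. The level was 0.302 CPM in WT, 356 CPM in dgcr8-/- and 83.4 CPM in dicer-/-. Its log2 ratio to WT, 8.10 in dgcr8-/- and 6.02 in dicer-/-, ranked 1 of 13223 and 1 of 13403 genes. The dicer-/- rank depended on the pseudocount, being 4 with 0.1 CPM, behind 3 genes at 0 in WT that include Trim67 (log2 ratio 8.16 against 7.70 for Mid1), and 2 with 5 CPM, while the dgcr8-/- rank was 1 with each. Mid1 was also the only member called higher in dgcr8-/- than in dicer-/-, 4.27-fold (3.99 to 4.58). In mice, Mid1 crosses the boundary of the pseudoautosomal region of the X chromosome, and no source used here says how reads of its repeated part were counted.

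Trim67, a brain-enriched relative of Mid1, had 0 counts in WT, 66 in dgcr8-/- and 350 in dicer-/-. With 3 counts set as the WT floor, it was at least 19.6-fold higher in dgcr8-/- and at least 94.1-fold higher in dicer-/-. Trim36, a microtubule-binding ligase described in male germ cells, had 1 count in WT, 48 in dgcr8-/- and 166 in dicer-/-. Its ratio to WT was 42.9 (7.33 to 1728) in dgcr8-/- and 134 (23.7 to 5322) in dicer-/-, and the width of these intervals follows from the single WT count. Both were lower in dgcr8-/- than in dicer-/-, Trim67 4.79-fold (3.67 to 6.33) and Trim36 3.13-fold (2.25 to 4.40), opposite to Mid1. Trim46, which organises microtubules at the start of the axon, went the other way from WT, with 50 counts in WT, 8 in dgcr8-/- and 12 in dicer-/-. It was 7-fold lower (3.29 to 17.1) in dgcr8-/- and 5.16-fold lower (2.71 to 10.7) in dicer-/-. Thus 3 of the 4 listed members of this class were higher and 1 lower than WT in each knockout, and each of the 4 was at 1 CPM or more only on its higher side. Over all genes 14.3% were higher and 8.02% lower in dgcr8-/-, and 16% and 9.7% in dicer-/-. The neuron marker list had 6 of 8 members listed, none at 0. In dgcr8-/- 4 were called higher, Nefm, Pax6, Nefl and Stmn2, where 14.3% of all genes were. In dicer-/- 4 were called higher, Nefm, Pax6, Nefl and Map2, where 16% of all genes were. Of these, 2 in each knockout, Nefm and Pax6, were under 1 CPM in WT. Stmn2 was not called in dicer-/- (log2 ratio 0.58). The summed level of the list was 305 CPM in WT, 729 in dgcr8-/- and 479 in dicer-/-. The part of these markers in the differences of the COS-box class was not tested. Most of that sum came from Stmn2, at 166, 509 and 250 CPM, and Tubb3, at 126, 167 and 129 CPM. Pax6 had 2, 66 and 189 counts, and the neurofilament gene Nefl 94, 417 and 839, so both were above their dgcr8-/- level in dicer-/-, unlike the sum. Tubb3 was not called in either knockout (log2 ratios 0.40 and 0.03), and Map2 was called in dicer-/- (1.42) and not in dgcr8-/- (0.07).

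The related muscle RING genes were low in all 3 libraries. Trim63 encodes MuRF1, a sarcomere-associated ligase of muscle breakdown, and had 78 counts in WT, 12 in dgcr8-/- and 4 in dicer-/-. It was 7.28-fold lower (3.94 to 14.7) in dgcr8-/- and 24.2-fold lower (9.07 to 90.9) in dicer-/-. Trim54, its paralogue MuRF3, had 6, 8 and 23 counts, and entered the dicer-/- comparison without a call (log2 ratio of (CPM + 1) 0.84). Its ratio of CPM there was 3.09 (1.22 to 9.29). Among 8 striated muscle markers 3 were listed, summing to 53.9 CPM in WT, 7.91 in dgcr8-/- and 4.22 in dicer-/-, none at 0, and their part in the Trim63 difference was not tested. The intermediate filament gene Des made up most of that sum in WT and dgcr8-/-, at 506, 69 and 20 counts, while the myosin heavy chain genes Myh6 and Myh7 had 7 to 17 counts in every library. The counts of Trim63 equal those of Hormad2 in all 3 libraries, and those of Trim61 equal those of Daf2. Whether this is more than a tie of low counts was not tested.

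**Figure D2:**
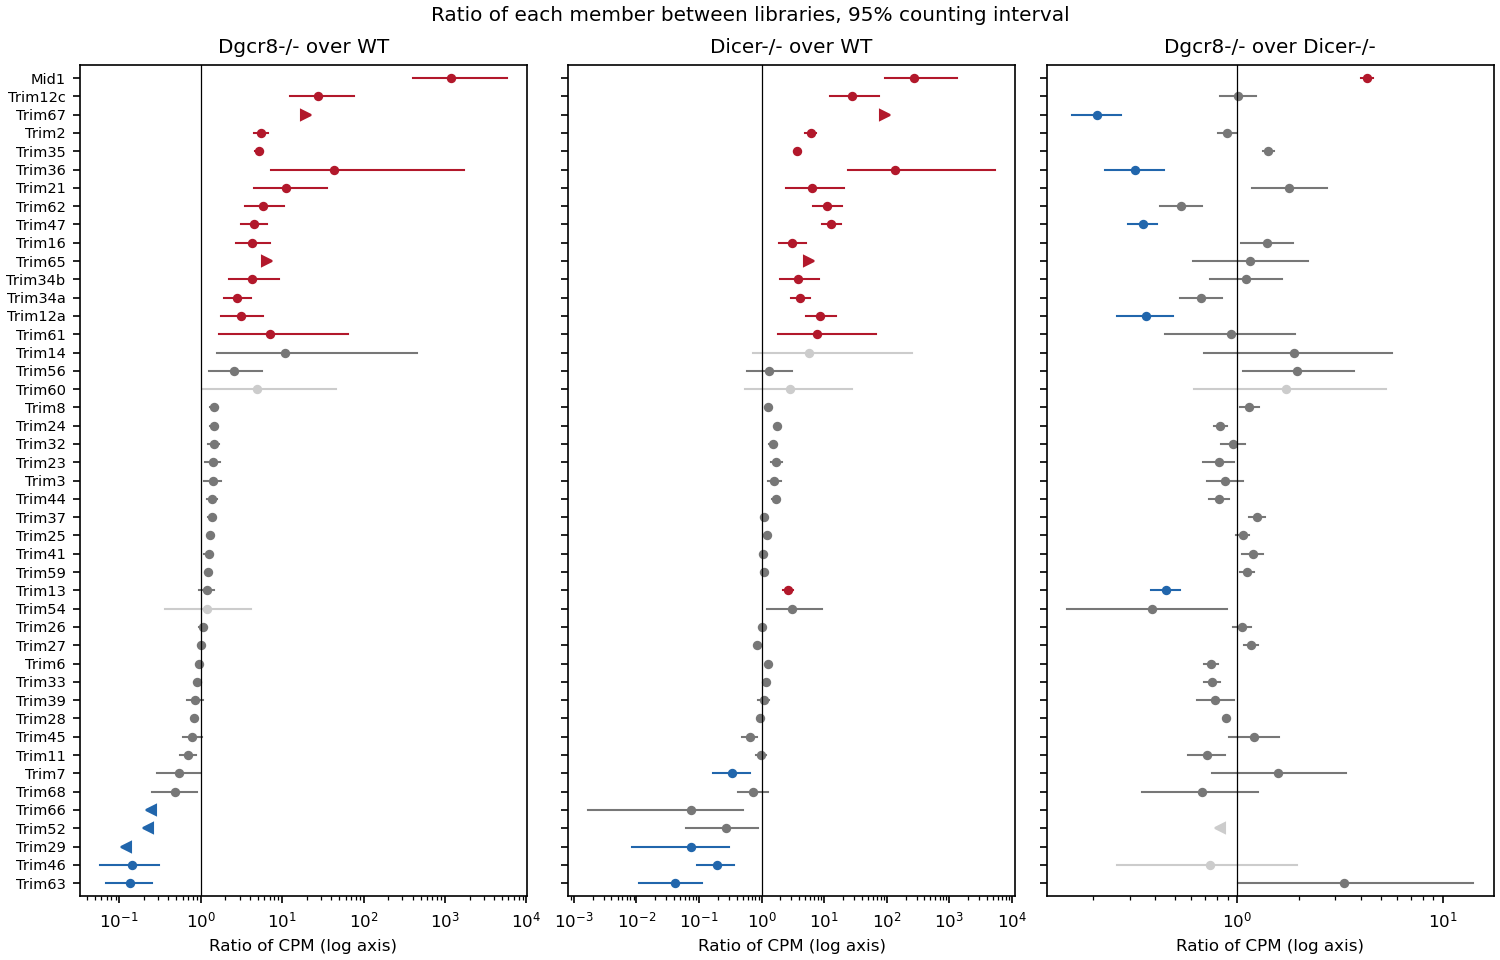
Ratio of CPM between libraries for each member (log axes), with the exact 95% counting interval as a bar and members called higher in red, lower in blue, not called in grey and not entered in pale grey. Triangles are ratios against 3 counts where 1 library was at 0, without the counting error of the other library. Mid1 lies at 1179 in dgcr8-/- over WT and at 4.27 in dgcr8-/- over dicer-/-, on the opposite side from Trim67, Trim36, Trim47, Trim12a and Trim13.

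In the PRY-SPRY class, the largest with 19 listed members, 9 of 18 tested were higher and 0 lower in dgcr8-/-, and 9 of 18 higher and 1 lower in dicer-/-. Over all genes 14.3% were higher and 8.02% lower in dgcr8-/-, and 16% and 9.7% in dicer-/-. In each comparison 3 of the 18, Trim12c, Trim65 and Trim21, reached 1 CPM in the knockout alone and are among the 9. The median log2 ratio of the class was 0.80 and 0.85. Trim35, a ligase linked to growth arrest and to pyruvate kinase, carried the most counts of those called, with 372 in WT, 2154 in dgcr8-/- and 1680 in dicer-/-. It was 5.17-fold higher (4.63 to 5.79) in dgcr8-/- and 3.64-fold higher (3.25 to 4.09) in dicer-/-. Trim62, known from epithelial polarity, had 17, 112 and 231 counts and was 5.88-fold (3.51 to 10.5) and 10.96-fold (6.70 to 19.1) higher. Trim47 had 39, 196 and 622 counts, 4.49-fold (3.17 to 6.50) and 12.9-fold (9.31 to 18.3) higher. Trim47 was 2.87-fold lower (2.44 to 3.38) in dgcr8-/- than in dicer-/-, whereas Trim62 did not reach 2-fold between the knockouts (log2 ratio -0.84). Trim65, the next protein-coding gene to Trim47 on chromosome 11 and a ligase reported to act on the Argonaute partner TNRC6A, had 0, 22 and 21 counts. It was at least 6.55-fold and 5.65-fold higher than WT against the floor of 3 counts, in dgcr8-/- and dicer-/- in turn. Trim7, named for its binding to glycogenin, was the one member of the class called lower, with 33, 20 and 14 counts and a 2.92-fold lower level (1.52 to 5.91) in dicer-/-.

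A run of PRY-SPRY genes on chromosome 7, mouse relatives of the retroviral restriction factor TRIM5, was higher except at one end. In RefSeq order the listed genes are Trim6, Trim34a, Trim12a, Trim34b and Trim12c, with 1 other protein-coding gene among them, between Trim34a and Trim12a. Trim6 had 1004 counts in WT, 1084 in dgcr8-/- and 1601 in dicer-/-, with log2 ratios of -0.05 and 0.36, the first of which lies below the median of all genes. Trim34a had 39, 122 and 202 counts and was 2.79-fold (1.93 to 4.12) and 4.18-fold (2.95 to 6.05) higher. Trim34b had 11, 53 and 53 counts and was 4.30-fold (2.22 to 9.13) and 3.89-fold (2.01 to 8.25) higher. Of the 5 genes, 4 were thus above 2-fold in each knockout, and Trim6 was not, where 14.3% and 16% of all genes were higher. Trim12c was at 0.604 CPM in WT and entered through the knockouts alone. The 4 genes are close copies whose reads may not be separable, so they do not count as separate observations.

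The copies Trim12c and Trim12a, whose upstream windows are printed above, differed in their ratio to WT in dgcr8-/-. In dicer-/- the intervals of their ratios to WT overlapped. Trim12c had 6 counts in WT, 187 in dgcr8-/- and 205 in dicer-/-, and was 27.8-fold (12.5 to 76.8) and 27.6-fold (12.5 to 76.0) higher. Trim12a had 16, 56 and 172 counts and was 3.12-fold (1.77 to 5.84) and 8.67-fold (5.19 to 15.5) higher. Between the knockouts Trim12a was 2.78-fold lower (2.04 to 3.82) in dgcr8-/-, while Trim12c had a log2 ratio of 0.01. The Trim12 and Trim34 genes are close copies, and reads shared between copies could be assigned to either, so their separate counts are uncertain.

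Trim21, the cytosolic antibody receptor, and Trim25, which activates the RNA sensor RIG-I and binds let-7 precursors, stand for the antiviral side of the class. Trim21 had 5 counts in WT, 63 in dgcr8-/- and 39 in dicer-/-, 11.2-fold (4.57 to 35.8) and 6.29-fold (2.48 to 20.5) higher. Trim25 had 958, 1413 and 1470 counts, with log2 ratios of 0.39 and 0.31 and no call. The RIG-I pathway list had 7 of 10 genes listed, of which 4 were higher and 0 lower in dgcr8-/- (median log2 ratio 1.21), and 2 higher and 0 lower in dicer-/- (0.24), where 14.3% and 16% of all genes were higher. Rnf135, a RING ligase of the same pathway, had 7, 81 and 146 counts, the antiviral zinc finger gene Zc3hav1 54, 287 and 310, the adaptor gene Mavs 313, 842 and 462, and Ddx58, which encodes RIG-I, 240, 635 and 354. Rnf135, called higher in both knockouts, was at 0.705 CPM in WT and entered through the knockouts alone, where a large ratio is built in. Mavs and Ddx58 were called in dgcr8-/- and not in dicer-/-, and between the knockouts their log2 ratios were 0.99 and 0.96, just under the call.

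The remaining PRY-SPRY genes were not called in either knockout. Trim27, a ligase that also binds chromatin repressors, had 1043 counts in WT, 1169 in dgcr8-/- and 1107 in dicer-/-. Trim26 had 597, 708 and 741 counts, Trim41 407, 575 and 535, and Trim39, a regulator of the anaphase-promoting complex, 169, 160 and 226. Trim11 had 198, 155 and 241 counts and Trim68 31, 17 and 28, and the log2 ratios of these 6 genes lay between -0.70 and 0.33. As a ratio of CPM, Trim68 was 2.04-fold lower (1.10 to 3.93) in dgcr8-/-. Trim60 reached 1 CPM in no library, with 2, 11 and 7 counts. It and Trim61, a gene of the class without an added domain, overlap and share an annotated start, so their reads may not be separable. Trim61 had 2, 16 and 19 counts, 7.14-fold (1.68 to 64.0) and 7.67-fold (1.85 to 67.9) higher, and its dgcr8-/- call was lost under median-ratio and TMM scaling (log2 ratio 1.02 against 0.97 and 0.98).

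**Figure D3:**
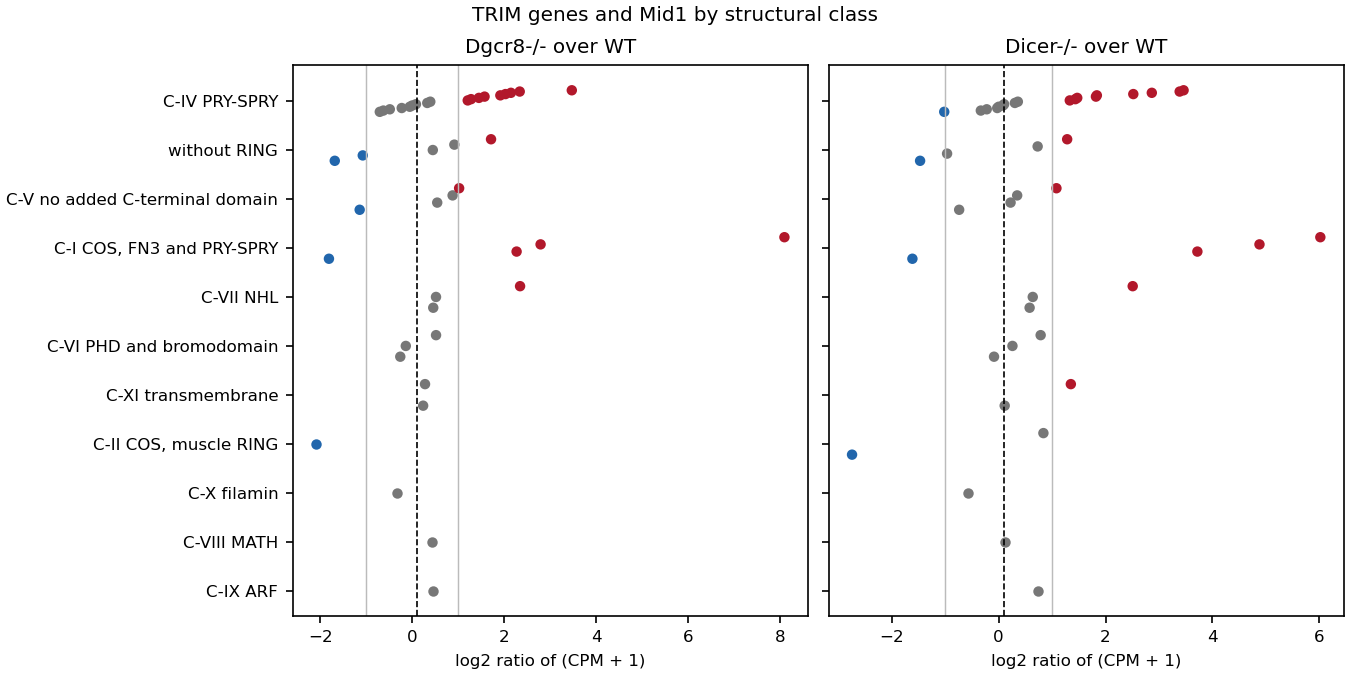
Log2 ratio of (CPM + 1) of each tested member in dgcr8-/- over WT (left) and dicer-/- over WT (right), by structural class, 1 point per gene. Points at or beyond the grey lines at 1 and -1 are called (red higher, blue lower), and the dashed line is the median of all genes, 0.11 and 0.10. The PRY-SPRY class has 9 red points in each panel, and Mid1 is the point at 8.10 and 6.02.

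Of the NHL class, 1 of 3 members was called, higher in both knockouts, where 14.3% and 16% of all genes were higher. Trim2, a ligase of the neurofilament light chain, had 118 counts in WT, 718 in dgcr8-/- and 890 in dicer-/-. It was 5.43-fold higher (4.47 to 6.66) in dgcr8-/- and 6.09-fold higher (5.02 to 7.44) in dicer-/-. Trim3, a brain-enriched relative, had 113, 178 and 225 counts, and Trim32, which binds Argonaute in neural progenitors, 267, 433 and 501. Their log2 ratios lay between 0.46 and 0.64, above the median of all genes and short of 2-fold.

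The transcriptional co-repressors of the PHD and bromodomain class had no call in any pair. Trim28 (KAP1), the partner of KRAB zinc finger proteins in silencing of retroelements, was at 1675 CPM in WT, 1400 in dgcr8-/- and 1580 in dicer-/-. Its log2 ratio was -0.26 and -0.08, so it lay below the median of all genes in both. Trim24, a nuclear receptor cofactor, had 751, 1210 and 1615 counts, with log2 ratios of 0.52 and 0.79. Trim33, a ligase and cofactor of SMAD signalling, had 822, 835 and 1222 counts, with -0.14 and 0.26. Trim66, the testis-enriched relative that lacks a RING finger, had 11 counts in WT, 0 in dgcr8-/- and 1 in dicer-/-. It was at least 4.11-fold lower in dgcr8-/- against 3 counts. In dicer-/- its CPM was 13.6-fold lower (1.98 to 587). There it missed the call at a log2 ratio of -0.96, which median-ratio and TMM scaling moved past it to -1.01 and -1.005.

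The other members without a RING finger differed among themselves. Trim16, involved in autophagy and oxidative stress, had 23 counts in WT, 110 in dgcr8-/- and 87 in dicer-/-, 4.27-fold (2.71 to 7.02) and 3.05-fold (1.91 to 5.07) higher. Trim29 had 22, 0 and 2 counts, at least 8.21-fold lower in dgcr8-/- and 13.6-fold lower (3.35 to 120) in dicer-/-. Trim44 had 350, 539 and 728 counts with no call. Trim14, at 1, 12 and 7 counts, lay just outside the call in dgcr8-/- (log2 ratio 0.92) and did not enter in dicer-/-. Its ratio of CPM in dgcr8-/- was 10.7 (1.59 to 458). In this group the members called were thus on both sides of WT, each with 110 counts or fewer.

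Trim13, a ligase anchored in the endoplasmic reticulum, was called higher in dicer-/- and not in dgcr8-/-, with 159 counts in WT, 212 in dgcr8-/- and 522 in dicer-/-. It was 2.65-fold higher (2.21 to 3.18) in dicer-/- than in WT and 2.23-fold lower (1.89 to 2.62) in dgcr8-/- than in dicer-/-. The other membrane-anchored member, Trim59, had 957, 1303 and 1285 counts and no call. Trim8, a modulator of cytokine signalling, had 467, 768 and 740 counts, Trim56, an antiviral ligase, 11, 32 and 18, and Trim37, a centrosome regulator mutated in mulibrey nanism, 755, 1151 and 1019. Trim23, which carries an ARF GTPase domain, had 148, 232 and 316 counts, and Trim45 122, 107 and 98. These 5 were not called in either comparison. The ratio of CPM of Trim56 in dgcr8-/- was 2.60 (1.28 to 5.71), and a pseudocount of 0.1 CPM gave it a call there. Trim52, at 12, 0 and 4 counts, was at least 4.48-fold lower in dgcr8-/- and was not called in dicer-/- (log2 ratio -0.74). In dicer-/- its CPM was 3.72-fold lower (1.13 to 15.8).

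Setting dgcr8-/- against dicer-/- leaves the WT library out. Of 40 members that entered, 1 was at least 2-fold higher in dgcr8-/- (2.50%) and 5 lower (12.5%), where 4.15% and 5.05% of all 12986 genes were. The one higher was Mid1, and the lower ones were Trim67, Trim36, Trim47, Trim12a and Trim13. The median log2 ratio of the members was -0.06 and that of all genes 0.00. The member nearest to the call on the higher side was Trim21 at 0.68, far below Mid1 at 2.08. On the lower side the values ran from -2.09 for Trim67 to -1.11 for Trim13, next to -0.84 for Trim62, which was not called. All 5 lower members were higher than WT in dicer-/-, the library they are compared with here.

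The partners of these proteins were listed from knowledge of the family, and their counts stand beside 14.3% of all genes higher and 8.02% lower in dgcr8-/-, and 16% and 9.7% in dicer-/-. Of 7 genes of the MID1 and protein phosphatase 2A list, 0 were called in either knockout. Igbp1, the adaptor that links MID1 to the phosphatase, had 953 counts in WT, 829 in dgcr8-/- and 1111 in dicer-/-, and the catalytic subunit gene Ppp2ca 2872, 2859 and 3314. Mid1ip1, whose product associates with MID1, had 307, 187 and 274 counts, with log2 ratios of -0.84 and -0.46, the lowest of the list. In dgcr8-/- the log2 ratio of 8.10 for Mid1 thus stands beside a range of -0.84 to 0.74 for its listed partners.

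Of 13 genes of the TRIM28 repressor complex, 1 was higher and 1 lower in dgcr8-/-, and 2 higher and 1 lower in dicer-/-, with medians of 0.54 and 0.55. The KRAB zinc finger gene Zfp57, which guards imprinted methylation, had 7447 counts in WT, 3257 in dgcr8-/- and 3285 in dicer-/-. Chd3, a remodeller of the NuRD complex, had 125, 518 and 442 counts, and the deacetylase gene Hdac1 2667, 4548 and 7112. The histone methyltransferase gene Setdb1, at 961, 1921 and 1934 counts, had log2 ratios of 0.83 and 0.69 and no call. Zfp57 was thus the gene of the list called lower in each knockout, and Trim28 itself was not called.

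Of 8 receptors and SMADs that work with TRIM24 and TRIM33, 2 were higher in dgcr8-/- and 1 in dicer-/-, with 0 lower in either. Smad3 had 103 counts in WT, 440 in dgcr8-/- and 371 in dicer-/-. The retinoic acid receptor genes Rarb, at 10, 34 and 6 counts, and Rarg, at 1581, 2191 and 1025, were the 2 of the list called higher in dgcr8-/- than in dicer-/-. Rarb was at 0.487 CPM in dicer-/- and entered that pair through dgcr8-/- alone. Smad4, the common SMAD that TRIM33 marks with ubiquitin, had 466, 589 and 651 counts and no call.

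Of 14 listed ubiquitin E1 and E2 genes, which supply the RING finger with ubiquitin, 1 was higher in dgcr8-/- and 3 in dicer-/-, with 0 lower, where 14.3% and 16% of all genes were higher. Ube2e2 had 18 counts in WT, 119 in dgcr8-/- and 228 in dicer-/-, and Ube2w, an E2 that modifies protein amino termini, 192, 301 and 526. The E1 gene Uba1, at 8293, 7925 and 7948 counts, and Ube2d3, an E2 that many RING ligases use, at 4491, 3481 and 4830, were not called. The medians of the list were -0.08 and 0.06. Genes with a B-box or a SPRY domain but another name, 5 of 7 listed, had 0 calls against WT. Among them Pml, the TRIM gene of nuclear bodies, had 1163, 1310 and 1809 counts.

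**Figure D4:**
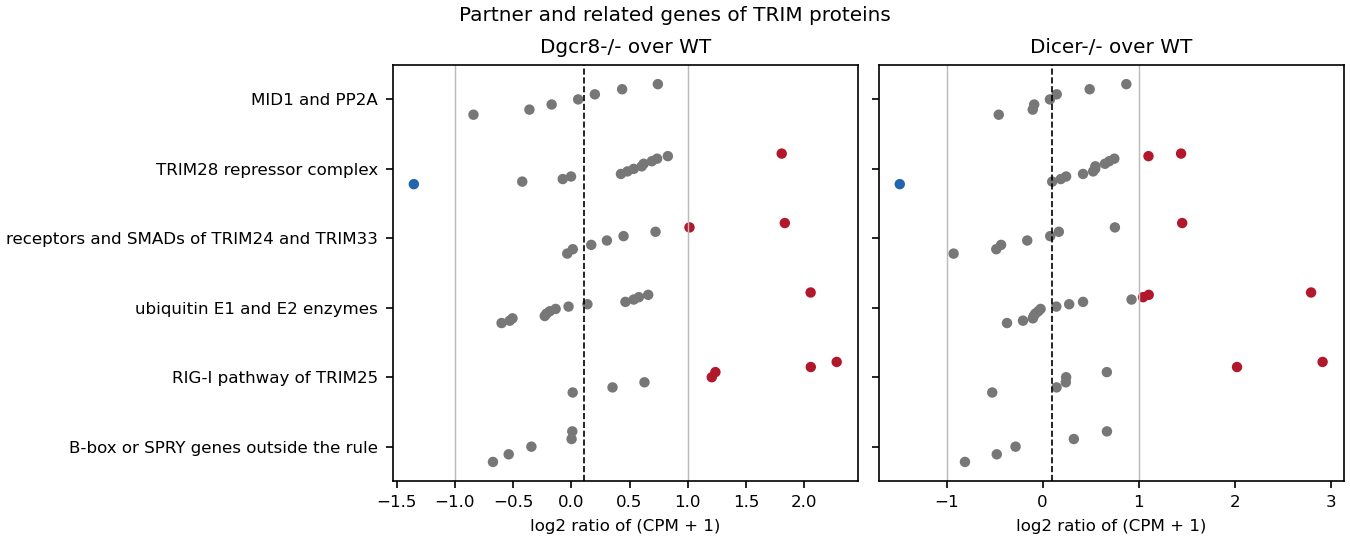
Log2 ratio of (CPM + 1) of genes listed as partners or relatives of TRIM proteins, in dgcr8-/- over WT (left) and dicer-/- over WT (right), 1 point per gene, with calls and lines drawn as for the structural classes. The 7 genes of the MID1 list lie between -0.84 and 0.87, and the RIG-I list has 4 red points on the left and 2 on the right.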

How the data were processed

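RNA of WT, dgcr8-/- and dicer-/- mouse embryonic stem cells was made into stranded poly(A) libraries, 1 per group, per the labels' protocols. Bowtie and the build mm9 are listed, without a version of the tool, per the submitters' processing notes; for the counting tool, annotation and use of strand, no source used here gives a name. As deposited by the authors, the table gives raw counts for each RefSeq entry. Empty cells (252 in WT, 221 in dgcr8-/-, 138 in dicer-/-) were read as 0. The small RNA table and protein sequences were not used here. Low counts (2 to 9) were mostly even (69.6%, 74.8% and 69.7%), as when both mates are counted, so counting intervals may be too narrow.

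Counts were scaled to CPM over the whole table, and log2 ratios taken with a pseudocount of 1 CPM, where either library reached 1 CPM, and called at 2-fold. Ratios of CPM carry exact conditional binomial 95% intervals (scipy 1.17.1), and a library at 0 was set at a floor of 3 counts. The ratio and interval code was tested on simulated data. Members, lists and rules were chosen with earlier results of these data known. The naming rule takes every member at 2-fold or at 20 CPM or more and up to 4 genes of each other list; the remaining members are named as well. Members were matched to RefSeq GRCm38.p6 for names, order and promoters, 44 by accession and 1 by symbol. Coordinates are those of the promoter table and are not those of the authors' build. Other settings changed the pseudocount, floor, scaling (median-ratio, and TMM by edgeR 4.0.16), size rule and rows sharing a symbol.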

Additional observations from a re-analysis of the deposited data

How the results depend on the processing

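The counts of members at 2-fold held within 1.5 times under median-ratio and TMM scaling, without a floor and with 1 row per symbol, and the members' medians stayed inside their order-statistic intervals under every setting tried. With a pseudocount of 5 CPM, 8 members were higher and 1 lower in dgcr8-/- against WT. In dicer-/- against WT 11 were higher, instead of 16, and 1 lower, and 2 were lower in dgcr8-/- against dicer-/-. Over all genes the same setting left 8.22% higher and 3.11% lower in dgcr8-/-, 9.19% and 4.41% in dicer-/-, and 1.71% lower between the knockouts. With a pseudocount of 0.1 CPM, 2 of 40 members were higher in dgcr8-/- than in dicer-/-, where 6.54% of all genes were. A floor of 5 CPM left 2 of 32 members lower in each knockout against WT. Over all genes 6.42% were lower in dgcr8-/- and 8.37% in dicer-/-. By its own construction, the 4-fold rule left fewer calls, with 8 of 43 members higher and 1 lower in each knockout. Over all genes it left 2.59% higher and 1.20% lower in dgcr8-/-, and 4.02% and 1.74% in dicer-/-. In dgcr8-/- against dicer-/- it left 1 of 40 members lower, where 0.878% of all genes were. The 1.5-fold rule gave 4 of 40 members higher in dgcr8-/- than in dicer-/-, where 12.6% of all genes were. No called member changed sign under any of these settings. No paired analysis was possible because each group has 1 library. Depth limits the members under 10 counts, 10 in WT, 5 in dgcr8-/- and 6 in dicer-/-, whose ratios rest on few reads.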
